A study of Mus musculus and Homo sapiens with 12 samples.

Results

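The older mouse L1Md lineages are the LINE-1 (L1) subfamilies of the house mouse genome whose names start with L1Md but are not L1MdA, L1MdTf or L1MdGf, the lineages to which the young mouse L1 elements belong. Of 3158171 annotated repeat elements of the mm10 genome, 114471 met this rule. They fell into 13 subfamilies of 5 lineages: L1MdF (F_I to F_V, 48499 elements), L1MdFanc (Fanc_I and Fanc_II, 21936), L1MdV (V_I to V_III, 27030), L1MdMus (Mus_I and Mus_II, 15309) and L1MdN (N_I, 1697). Membership rested on the annotated name alone, not on any measured value. Counts came from 6 libraries of mouse embryonic stem cells (mESC), 3 wild type (WT) and 3 with both Tet2 alleles lost (Tet2 KO), all grown with LIF and the inhibitors CHIR99021 and PD0325901. Each library was chromatin-associated RNA (caRNA, the RNA left with chromatin after nuclei are fractionated) precipitated with an antibody to 5-methylcytosine (m5C). TET2 is a dioxygenase that oxidises 5-methylcytosine, and the comparison of KO with WT asks which older L1 RNAs differ in the m5C-bound caRNA when it is missing. Library numbers 1 to 3 are those of the labels, which do not say whether they are separate cultures or clones, so p-values measure the spread between these libraries only. Only repeats were counted here, so Tet2 itself and stem-cell marker genes were not checked.

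L1 elements copy themselves through an RNA that encodes an RNA-binding protein and an endonuclease with reverse transcriptase. Most copies are cut short at the 5′ end, and older lineages have gathered mutations and later insertions of other repeats, so few can move. Their sequences still lie in many introns and between genes, where they can be transcribed from their own start or as a piece of a longer nuclear RNA.

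The study had designed bisulfite primers for L1MdF and L1MdV, which show the kind of sequence these lineages carry. Capitals in the primers mark the letters that stand at, or opposite, a converted cytosine of the best-covered genomic target of the pair, and capitals in the target mark every cytosine. The target printed for the L1MdF pair lies in an L1MdF_II element, in the sense of the element (mm10, chr15:14318544-14318665, minus strand). Among the older elements that the pair matched, it was the one with the most counts. The corresponding L1MdV target is described by its values only.
L1MdF forward: ggttTtgggaTtTTgTTgaaTttag
L1MdF reverse: ccaAaacaAAacctttcccaAaaAct
L1MdF_II target: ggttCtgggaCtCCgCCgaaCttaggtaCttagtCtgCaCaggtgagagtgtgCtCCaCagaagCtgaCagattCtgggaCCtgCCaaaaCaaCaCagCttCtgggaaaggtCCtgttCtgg
L1MdV forward: gtgatggaattgaaTaaaaTTatTT
L1MdV reverse: tctatAAttcctAatttctttccta
The L1MdF target held 30 cytosines in 122 bases, 2 of them in CpG, and the L1MdV target 18 cytosines in 125 bases and no CpG. After in silico conversion of the genome the L1MdF pair matched 63 places without a mismatch, and 56 older L1Md elements on the same strand held such a place, 49 of them L1MdF_II. The L1MdV pair matched 279 places, and 262 older L1Md elements on the same strand held one, of which 43 were L1MdV_I, 9 L1MdV_II and 1 L1MdV_III, against 71 L1MdFanc_II, 49 L1MdFanc_I, 40 L1MdMus_II and 36 L1MdMus_I. By number of elements, the pair named for L1MdV therefore matched Fanc and Mus more often than V. By estimated counts over the 6 libraries, the matched L1MdV_I elements held 2054 of the 4092 counts of the matched older elements. The matched Fanc_I, Fanc_II, Mus_I and Mus_II elements held 682, 601, 335 and 207. A single element held 23.5% of the 4092.

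Further sequences show the loci on which the later results turn. The first 150 bases of 3 L1MdN_I copies of a stretch of chromosome 2 with many copies, called the array here (mm10, plus strand, at chr2:176690554-176690703, chr2:175490017-175490166 and chr2:176208510-176208659) are examples of its more similar copies. Capitals mark bases that differ from the first copy, 0 in the second and 7 in the third.
N_I copy 1: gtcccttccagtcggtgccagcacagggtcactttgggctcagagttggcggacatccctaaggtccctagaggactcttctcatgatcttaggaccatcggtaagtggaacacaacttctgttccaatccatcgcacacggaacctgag
N_I copy 2: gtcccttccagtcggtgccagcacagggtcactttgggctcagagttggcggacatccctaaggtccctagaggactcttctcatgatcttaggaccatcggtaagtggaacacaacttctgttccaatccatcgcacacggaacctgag
N_I copy 3: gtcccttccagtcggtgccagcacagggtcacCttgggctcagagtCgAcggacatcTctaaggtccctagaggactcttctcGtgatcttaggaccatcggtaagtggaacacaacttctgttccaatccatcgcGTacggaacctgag
The first 150 bases of the 1 called locus, an L1MdF_III element (chr14:42283038-42283187, minus strand), are given with its 4 CpG in capitals.
L1MdF_III: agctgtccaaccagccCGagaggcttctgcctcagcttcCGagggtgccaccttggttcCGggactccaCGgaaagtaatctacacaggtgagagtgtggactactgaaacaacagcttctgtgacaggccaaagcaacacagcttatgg

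The older lineages summed to 138990, 198075 and 200327 estimated counts in WT, against 90154, 81669 and 106693 in KO. All 4 repeat classes together (DNA, LINE, LTR and SINE) held 2199886 to 3318565 counts in WT and 1532029 to 1999210 in KO, so the KO libraries were all shallower. Counts reached 39918 of the 114471 elements (34.9%), and 989 loci held 50% of them. Precipitated RNA was counted without an input column, so differences in RNA amount and in m5C enrichment cannot be separated, all values are relative to the remaining repeats, and fewer cells with an RNA cannot be told apart from less RNA per cell. Some elements had nearly all their reads in 1 library: of 3420 members with at least 50 counts, 694 (20.3%) had at least 90% of them in a single library.

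Counts were summed per subfamily and compared between KO and WT with edgeR's quasi-likelihood test, adjusted over all 547 subfamilies tested, of which 2.01% were called at an adjusted p under 0.05. All 13 older subfamilies were tested and 1 was called, L1MdF_I, lower in KO. The log2 change was below 0 in 10 of the 13 and above 0 in 3, with a median of -0.35 beside 0.12 over all subfamilies. KO and WT libraries did not overlap, with KO the lower, for 5 of the 13 (F_I, F_II, F_III, N_I and V_I), where 10.4% of all subfamilies tested did so. For 0 of the 13 was every KO library above every WT library, where 11.2% of all subfamilies were. Among the 12 L1MdA, L1MdTf and L1MdGf subfamilies 6 were called, L1MdA_I higher (log2 change 0.97 ± 0.084 SE) and 5 lower. Of these 12, 10 were below 0 and 2 above 0, with a median of -0.51. Their groups were apart with KO lower for 9 and with KO higher for 2. A lower level in KO was thus not particular to the older lineages, and the difference between those lineages and the older ones was not tested.

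L1MdF was the most abundant older lineage. L1MdF_I stood at 14957, 14779 and 16408 normalised counts (CPM, counts scaled to a common library size) in the WT libraries and at 11227, 9762 and 9184 in the KO libraries. Every KO library lay below every WT library, and the log2 change was -0.61 ± 0.11 (SE, n = 3 and 3, edgeR adjusted p = 0.0403). The call was lost when any 1 of the 6 libraries was left out, with adjusted p between 0.0557 and 0.159. It was also lost with DESeq2 size factors, library totals, the replicate block, without the 10 highest elements, without elements counted in 1 library and with elements of at least 1000 bp (edgeR adjusted p between 0.0542 and 0.164). L1MdF_II was at 4612, 5403 and 5305 CPM in WT and 3567, 3992 and 3606 in KO, a log2 difference of -0.46 ± 0.13 that did not pass (edgeR adjusted p = 0.180). L1MdF_III was at 9625, 7907 and 8501 CPM in WT and 6719, 6161 and 6020 in KO, also without overlap (-0.46 ± 0.12, edgeR adjusted p = 0.143). The groups of L1MdF_IV and L1MdF_V overlapped, with log2 differences of -0.35 ± 0.20 and -0.18 ± 0.13.

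**Figure D1:**
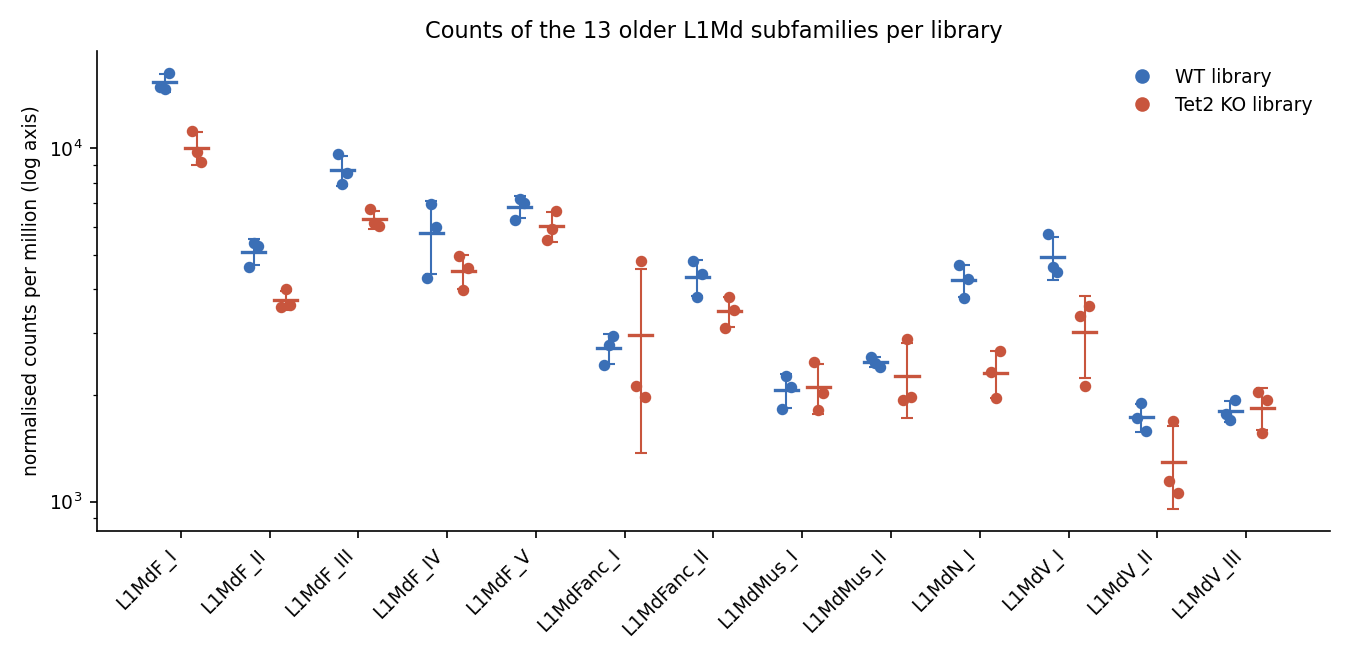
Normalised CPM (log axis) of each of the 13 older L1Md subfamilies in the 3 WT and 3 Tet2 KO libraries; points are libraries, horizontal bars group means and whiskers 1 SD. The groups stand apart for L1MdF_I, F_II, F_III, N_I and V_I, and for L1MdFanc_I 1 KO library lies at 4805 while the others lie at 2118 and 1977.

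L1MdN_I, the lineage with the fewest elements, showed the largest difference of the 13. It stood at 4678, 3780 and 4266 CPM in WT and at 2334, 1959 and 2665 in KO. No KO library reached the lowest WT library, but the log2 difference of -0.87 ± 0.17 missed the threshold (edgeR adjusted p = 0.0589). L1MdV_I was at 5729, 4624 and 4464 CPM in WT and 3364, 2122 and 3579 in KO, again without overlap and not called (-0.71 ± 0.23, edgeR adjusted p = 0.234). L1MdV_II (-0.42 ± 0.24) and L1MdV_III (0.03 ± 0.19) overlapped between the groups.

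The Fanc and Mus subfamilies overlapped between genotypes. L1MdFanc_I was at 2434, 2781 and 2941 CPM in WT and at 2118, 4805 and 1977 in KO, and the log2 difference of 0.13 became -0.40 without KO replicate 2. L1MdFanc_II was at 4788, 3785 and 4422 CPM in WT and 3108, 3791 and 3484 in KO (-0.32 ± 0.15). L1MdMus_I and L1MdMus_II differed by 0.03 ± 0.19 and -0.13 ± 0.20.

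Many older elements are broken by younger insertions, and the annotation joins their pieces into 1 span. Reads of a repeat inside such a span were counted for the outer element too. Among 3082 pairs in which a repeat with at least 50 counts lay whole inside a span of another subfamily on the same strand, the outer element held at least 95% as many counts in 3082 (100%). For inner repeats on the other strand this held for 652 of 2410 pairs (27.1%). Counts given to an older element can thus belong to a repeat inside it. Of the older elements 8412 (7.35%) spanned another subfamily's repeat on their strand, and these held 35.0% of the lineages' counts. The counts of the spanned repeats came to 21.8% of all older L1Md counts. That share was lowest for L1MdF_II (6.29%), L1MdN_I (8.10%) and L1MdF_I (10.4%) and highest for L1MdFanc_II (53.7%) and L1MdV_III (56.8%), beside 0.33% for L1MdTf_I.

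The fit was repeated with only elements that span no other repeat, in all subfamilies of the table. In it 1 of the 13 was called, where 14 of all 475 subfamilies tested were. Of the 13, 12 were below 0, with a median of -0.63 beside 0.06 over the 475. This setting was chosen after the data were seen. L1MdF_I was at 14774, 14139 and 16576 CPM in WT and 9324, 8257 and 7993 in KO, a log2 change of -0.83 ± 0.13 (edgeR adjusted p = 0.0183). L1MdN_I was at 4944, 3795 and 4654 CPM in WT and 2186, 1700 and 2461 in KO, with -1.08 ± 0.23 (edgeR adjusted p = 0.0525). L1MdFanc_II moved the most of the subfamilies below 0: at 2058, 1308 and 1861 CPM in WT and 770, 1122 and 878 in KO its groups no longer overlapped, and its log2 difference went from -0.32 to -0.92 ± 0.32 (edgeR adjusted p = 0.262). L1MdV_III was the only one of the 13 above 0 in this setting, at 536, 426 and 546 CPM in WT and 1129, 435 and 975 in KO (0.75 ± 0.46, groups overlapping).

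**Figure D2:**
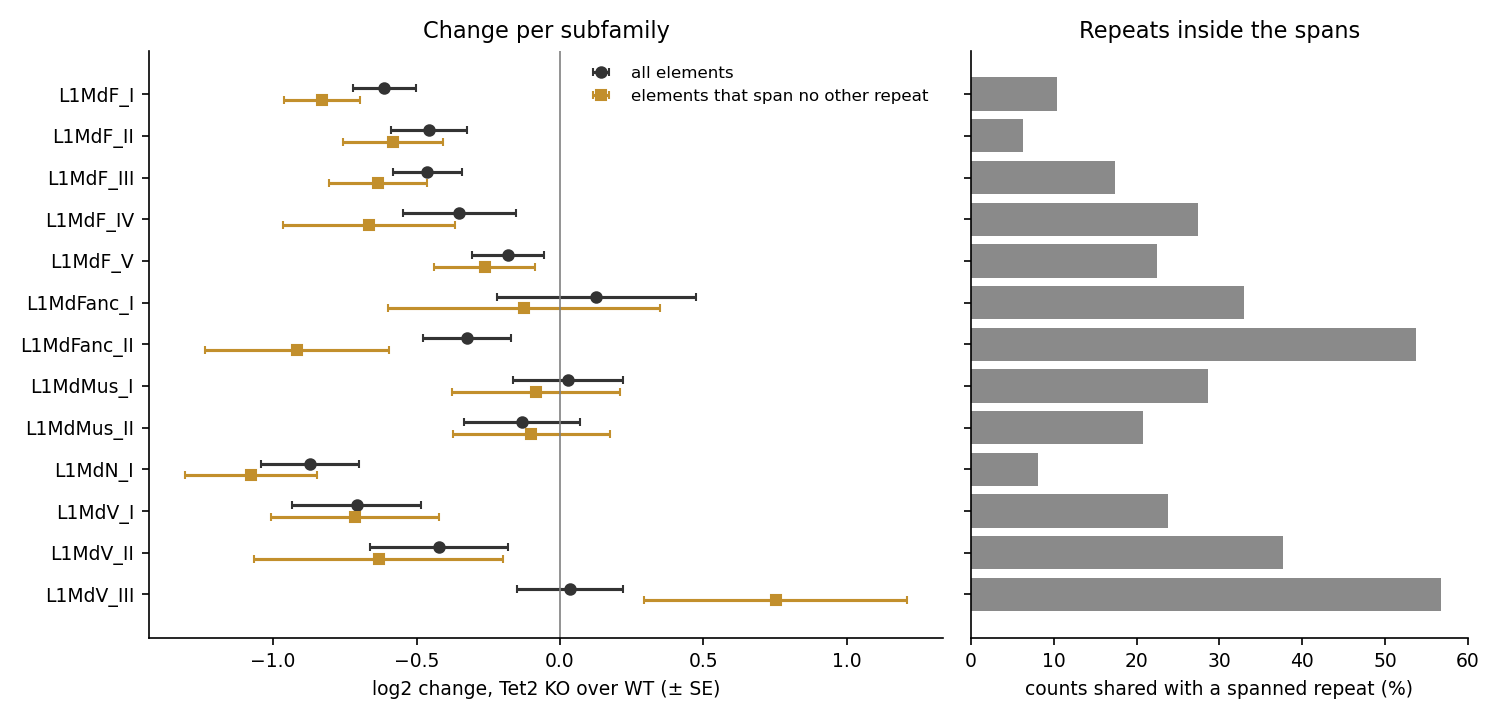
Left, log2 change of each older subfamily, Tet2 KO over WT, with its standard error, for all elements (circles) and for elements that span no other repeat (squares). Right, share of each subfamily's counts that are also those of a repeat inside an element's span; it runs from 6.29% (L1MdF_II) to 56.8% (L1MdV_III).

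A stretch of chromosome 2, whose first member starts at 174108099 and whose last ends at 178997084 (mm10), chosen after its values were seen, held a large part of the counts of 3 subfamilies. The stretch carries 118 annotated genes, 11 of them named Zfp, the prefix of zinc-finger protein genes. It held 269 older elements, of which 190 had counts. Among copies of at least 5000 bases and 50 counts, the median identity to the nearest other copy was 99.1% for 14 L1MdN_I copies (60.8% to 100%) and 99.2% for 25 L1MdV_I copies (75.3% to 100%), so short reads cannot always be assigned to 1 copy. The 30 L1MdN_I elements there gave 42.7%, 28.8% and 48.0% of that subfamily's counts in WT and 28.3%, 25.5% and 32.1% in KO. The 48 L1MdV_I elements gave 48.1%, 44.1% and 55.6% in WT and 27.3%, 26.6% and 30.9% in KO, and the 80 L1MdMus_II elements 43.0%, 44.0% and 40.8% in WT and 57.7%, 49.9% and 18.8% in KO.

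Within this array L1MdV_I summed to 2753, 2040 and 2483 CPM in WT and 920, 564 and 1108 in KO, a log2 ratio of the means of -1.49. Elsewhere in the genome it summed to 2976, 2584 and 1980 CPM in WT and 2444, 1558 and 2472 in KO, a ratio of -0.22. The groups stood apart inside the array and overlapped outside it. L1MdN_I had 1996, 1089 and 2048 CPM inside the array in WT and 661, 499 and 856 in KO (ratio -1.35), and 2681, 2691 and 2218 in WT and 1673, 1460 and 1809 in KO elsewhere (-0.62), so its groups stood apart in both. Over the genome, 42.6% of L1MdN_I and 57.1% of L1MdV_I counts lay in elements that overlap another older element, beside 26.1% for all older elements. Such overlaps were taken on either strand and with any older subfamily, so reads shared between N_I and V_I were not measured. The N_I and V_I sums may share reads and were not shown to be independent results. Without the array, in a refit chosen after the data were seen, the log2 difference was -0.64 for L1MdN_I (edgeR adjusted p = 0.166) and -0.25 for L1MdV_I (edgeR adjusted p = 0.641).

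Chromosome Y held a second set of loci, of L1MdFanc_II, that was chosen after values were seen and is described without a test. Of 819 Fanc_II elements there 103 had counts, and their sum was 587, 662 and 665 CPM in WT and 930, 978 and 986 in KO, with each KO library above each WT library. Fanc_II elements on other chromosomes summed to 4201, 3123 and 3757 CPM in WT and 2178, 2813 and 2498 in KO, all KO libraries below all WT. Of the 82 Y loci tested singly, 80 spanned another repeat on the same strand, and the 80 L1MdA_II elements inside them held counts equal to 95.3% of the 82 loci's counts. L1MdA_II is one of the young lineages, and its own part in the level of these loci was not tested further.

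As a share of all counts of the 4 classes, the older lineages together took 6.32%, 6.25% and 6.04% in WT and 5.24%, 5.33% and 5.34% in KO, or 6.20% ± 0.15 against 5.30% ± 0.056 (SD, n = 3 each). L1MdF took 3.92% ± 0.095 in WT and 3.25% ± 0.091 in KO, and L1MdN 0.40% ± 0.048 and 0.25% ± 0.042, both with the groups apart. The shares of L1MdV (0.80% ± 0.090 and 0.66% ± 0.078), L1MdFanc (0.66% ± 0.037 and 0.68% ± 0.20) and L1MdMus (0.43% ± 0.023 and 0.46% ± 0.031) overlapped between groups. Over the same libraries L1MdA took 12.9% in WT and 18.5% in KO, L1MdTf 32.6% and 23.2%, and L1MdGf 6.13% and 4.43%. The log2 ratio of KO over WT was -0.23 for the older lineages, -0.49 for L1MdTf and -0.47 for L1MdGf.

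Long spans carried most of the counts. Length here is that of the annotated span with any repeats inserted in it, and reads of those on its strand count for it too. Members of at least 5000 bp were 10.2% of the elements and 50.4% of the annotated bases, and 90.3% of them had counts. They gave 67.8% ± 1.5 of the lineages' counts in WT and 69.7% ± 2.0 in KO. Members under 1000 bp were 68.7% of the elements, and 18.3% of them had counts. The groups overlapped in each length class.

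Relative to genes (GENCODE M21), 79699 elements lay outside genes, 32883 in introns and 1889 overlapped an exon. Intronic elements gave 24.6%, 23.9% and 24.2% of the lineages' counts in WT and 19.4%, 20.9% and 18.8% in KO, with the groups apart. Elements in introns of genes on their own strand gave 10.2% ± 1.3 in WT and 6.84% ± 0.77 in KO, and those in the opposite direction 12.95% ± 1.1 and 12.3% ± 0.55. Only the former had every KO library below every WT library.

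The older subfamilies differ little in GC content (39.9% to 41.8%) but more in CpG, from 4.58 per kb in L1MdV_III to 9.85 in L1MdN_I, beside 13.6 in L1MdA_I. Across the 13 subfamilies the WT level per Mb of annotated sequence was higher in subfamilies with more CpG per kb (Pearson r = 0.93, Spearman rho = 0.91). L1MdN_I and L1MdF_I, with the most CpG, had 1330 and 1243 CPM per Mb, and L1MdV_III, with the least, had 121. The log2 difference of KO over WT ran the other way (r = -0.69, rho = -0.66, n = 13, and r = -0.54 without L1MdN_I). These are descriptions across subfamilies that share 6 libraries, their depth, base composition and in part their reads. CpG and Mb were taken over whole spans, with any inserted repeats. Over all 25 L1Md subfamilies the first relation was r = 0.73 and rho = 0.95. The second relation was r = -0.05 and rho = -0.43, with L1MdA_I high in both CpG and log2 change.

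Single loci were fitted in the same way over the whole table. Of 19030 loci tested 0.0473% were called, and of 1586 older L1Md loci tested 1 was called, higher in KO. The other members did not pass the count filter, most with too few counts and some with their counts in too few libraries. WT and KO did not overlap for 169 members with KO higher (10.7%, beside 15.1% of all loci) and for 169 with KO lower (10.7%, beside 12.6%). The median log2 change was -0.01 over the members tested and 0.03 over all loci. The balance of directions depended on the scaling and the filter. The TMM factors of the locus fit were 1.07 to 1.13 in WT and 0.89 to 0.96 in KO, opposite to those of the subfamily fit (0.90 to 0.97 and 1.04 to 1.10). With library totals the medians were -0.26 for members and -0.22 for all loci. At an unadjusted edgeR p under 0.05, 84 members were then higher and 187 lower, where the locus scaling gave 135 and 128. Those were 271 and 263 of the 1586 members, beside 4301 and 4000 of all 19030 loci. With the looser filter the medians were -0.49 over 8289 members and -0.20 over all loci.

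The counts differed with interruption, a split chosen after values were seen and so given without a test. Of the 850 tested members that spanned no other repeat on their strand, 101 (11.9%) were apart and lower in KO and 36 (4.24%) apart and higher, where all loci of this kind gave 11.2% and 15.7%. Their median log2 change was -0.19, beside 0.06 over all such loci. Of the 736 members that spanned another repeat, 68 (9.24%) were lower and 133 (18.1%) higher, where all such loci gave 17.8% and 12.8%, and 80 of those 736 were the chromosome Y Fanc_II loci. By lineage, beside 12.6% of all loci apart and lower and 15.1% apart and higher, 105 (10.6%) of 987 tested L1MdF loci were apart and lower and 74 apart and higher. Of 223 L1MdFanc loci 14 were lower and 66 (29.6%) higher, and of the 141 of these not on chromosome Y, 13 were lower and 23 higher. The lower and higher counts were 12 and 2 of 86 for L1MdN, 27 and 18 of 186 for L1MdV and 11 and 9 of 104 for L1MdMus. In the chromosome 2 array, itself chosen after its values were seen, 18 of 66 tested loci (27.3%) were lower in every KO library and 0 were higher.

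The called locus was an L1MdF_III element of 2472 bp at chr14:42280716-42283187, outside genes and 254 bp from the annotated gene Gm25892. It had 13, 13.2 and 9.25 estimated counts in WT against 171, 289 and 255 in KO. All KO libraries were far above all WT libraries, with a log2 change of 5.31 ± 0.48 (edgeR adjusted p = 0.0410). The other 21 repeats within 10000 bp went the other way, with 138.85, 546.5 and 43.55 counts together in WT and 5.88, 6.15 and 6.31 in KO. The call was lost in every fit that left out 1 library. A second L1MdF_III element 344575 bp away, at chr14:42625291-42627763, is 99.5% identical to it and lies 254 bp from Gm23620. It had 9.24, 10.9 and 5.25 counts in WT against 106, 265 and 207 in KO (log2 difference 5.50 ± 0.64, edgeR adjusted p = 0.0764), and its reads cannot all be told apart from those of the first.

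Of the 5 members with the highest counts, the first and the third were long spans with several other repeats inside. At chr1:164223520-164230602, an L1MdF_I element had 907, 1302 and 1483 counts in WT against 682, 853 and 891 in KO, but 4 repeats inside its span on the same strand had 891, 1265 and 1356 in WT and 658, 805 and 859 in KO. At chr10:5716601-5727057 an L1MdF_IV element had 397, 563 and 568 counts in WT against 363, 377 and 458 in KO, and the repeats inside it 396, 563 and 568 in WT and 363, 343 and 455 in KO. Nearly all counts of both were therefore also counts of the repeats they span. The log2 differences were 0.42 ± 0.21 and 0.65 ± 0.20 with the locus scaling and 0.16 and 0.39 with library totals, and neither passed the test (edgeR adjusted p = 0.309 and 0.137).

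Also among these 5 were a pair of uninterrupted L1MdF_IV elements, 52926 bp apart and 99.9% identical. The element at chr5:104685048-104687064 had 288, 1066 and 1698 counts in WT against 79, 0 and 0 in KO, and that at chr5:104632122-104634140 had 204, 856 and 1612 in WT and 51, 0 and 0 in KO. Both were lower in every KO library, but the WT libraries themselves spread widely. The log2 differences of -4.22 ± 1.70 and -4.64 ± 1.66 did not pass (edgeR adjusted p = 0.221 and 0.182). Both values rest on KO replicate 1, since the other KO libraries were at 0, and without it the fitted values were -12.57 and -12.36, which are no bounds. The fifth highest locus, an L1MdV_I element of the chromosome 2 array at chr2:175674497-175683727, had 362, 592 and 664 counts in WT against 216, 89.6 and 286 in KO (-0.49 ± 0.35). This element was also interrupted, by 1 repeat on its strand. The inner repeat reached 128 to 189 estimated counts per WT library but only 0.72 to 40.85 per KO library. Part of the difference at this locus was therefore also that of the repeat it spans.

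Some loci had counts in every WT library and almost none in KO. Of the 1586 tested members 11 had at most 3 counts over the 3 KO libraries and at least 10 in each WT library, and 1 showed the opposite, beside 55 and 16 of the 19030 loci of the table. That rule used raw counts, and all KO libraries were shallower, so near absence was easier to reach in KO than in WT. The member with the largest such difference was an L1MdFanc_II element at chr8:85275936-85277316, in an intron of Vps35 and on the opposite strand to it. Vps35 encodes a subunit of retromer, which sorts proteins out of endosomes. The element had 381, 324 and 133 counts in WT against 0, 0 and 0 in KO, at least 140-fold lower against a floor of 3 counts over the group (edgeR adjusted p = 0.0904). An L1MdMus_II element that overlaps an exon of Vps35 in the sense direction, at chr8:85267489-85270082, had 363, 265 and 413 counts in WT against 0, 2 and 0 in KO (edgeR adjusted p = 0.0782). The counts of the other 32 repeats within 10000 bp of the L1MdMus_II element were those of the L1MdFanc_II element alone.

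An L1MdV_I element of the chromosome 2 array, at chr2:176600609-176602205, had 16.8, 210 and 136 counts in WT against 0, 0 and 0 in KO, at least 60.8-fold lower (edgeR adjusted p = 0.101). An L1MdF_III element in an intron of 2410018L13Rik, on the gene's strand at chr12:22985208-22988041, had 111, 415 and 245 counts in WT against 0, 0 and 1.75 in KO (edgeR adjusted p = 0.0782). An L1MdF_I element at chr6:60419653-60420498 had 16.7, 89.8 and 81.3 counts in WT against 0.20, 0 and 0 in KO (edgeR adjusted p = 0.101). The WT libraries of these loci differed by several fold among themselves, and no locus with lower counts in KO was called.

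Of the loci higher in KO, an L1MdFanc_II element at chr9:19214188-19216396 had 0.85, 10.7 and 0.80 counts in WT against 239, 29.8 and 198 in KO (log2 difference 6.08 ± 1.18, edgeR adjusted p = 0.101). An L1MdV_II element at chr14:80146471-80151640 had 2.18, 2.40 and 6.00 counts in WT against 10.0, 45.7 and 191 in KO (5.51 ± 1.18, edgeR adjusted p = 0.101). An L1MdV_III element at chr1:104557760-104561693 had 0.70, 0.90 and 1.10 counts in WT against 11.6, 20.9 and 10.0 in KO (4.67 ± 0.65, edgeR adjusted p = 0.0782). All 3 lay outside genes and spanned no other repeat, their groups did not overlap, and they did not pass.

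The elements that hold the primer targets were summed as a description, with no test. The 56 older elements matched by the L1MdF pair stood at 378, 396 and 558 CPM in WT and 211, 170 and 142 in KO, with means of 444 ± 99.4 against 174.3 ± 34.8 (SD, n = 3 each), a log2 ratio of -1.35. The groups stood apart, and the element with the most counts held 6.75% of them. The 262 older elements matched by the L1MdV pair stood at 630, 153 and 197 CPM in WT and 604, 195 and 140 in KO, a log2 ratio of -0.06 with the groups overlapping. Replicate 1 was the high library in both genotypes, and 1 element held 23.5% of the counts. That element is an L1MdV_I element at chr8:20599935-20602737, minus strand, with 600, 13.2 and 1.5 counts in WT against 346, 0 and 0.20 in KO.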

How the data were processed

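The measured samples were 6 libraries of chromatin-associated RNA precipitated with an m5C antibody, 3 WT and 3 Tet2 KO. Per the labels and the study's methods, the authors trimmed reads (Trimmomatic 0.39), aligned them to mm10 (HISAT2 2.1.0), removed duplicates (Picard), counted them per repeat element (featureCounts) and deposited estimated counts for each element. The options that gave fractions, and the strand setting, are not given in the sources used here. Of the nonzero values of older L1Md elements 11.7% were whole and 45.8% below 1.

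Here estimated counts were summed per subfamily or kept per locus, rounded, and fitted with edgeR 4.0.16 (R 4.3.3; filterByExpr, TMM, quasi-likelihood test, Benjamini-Hochberg over all features, called at 0.05). DESeq2 1.42.0, other scalings, filters and left-out libraries were alternatives. Standard errors are the log2 change over the root of F. bedtools 2.31.1, Python 3.11.15 and pandas 2.3.3 were used, and scripts were tested on simulated data. Of 200 features given a log2 change of 2 there, the subfamily fit recovered 36% and the locus fit 0%. A feature that was not called can therefore still differ. Gene positions came from GENCODE M21, another release than the study's. Named were every older subfamily, called loci, the 5 loci with the highest counts and, among loci whose groups do not overlap and whose higher libraries each have at least 10 counts, the 5 with the largest change in each direction. The members and lists were chosen with earlier results of these data known. Precision was limited by 1532029 to 3318565 counts per library.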

Additional observations from a re-analysis of the deposited data

How the results depend on the processing

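The number of older subfamilies called (1) was 0 with DESeq2 size factors, with library totals, without the 10 highest elements, without elements counted in 1 library, with elements of at least 1000 bp and without any 1 library (0 to 0), and 5 with the DESeq2 Wald test (F_I, F_II, F_III, N_I and V_I). The number of loci called (1) was 119 of 1586 with the Wald test, 0 with the looser filter and 0 to 0 without any 1 library. Over the whole table the Wald test called 56 of 547 subfamilies and 2158 of 19030 loci. The log2 change of L1MdF_I kept its sign in all 16 alternatives but was not called with DESeq2 size factors (-0.66), library totals (-0.43), without the 10 highest elements (-0.60), without elements counted in 1 library (-0.54), with elements of at least 1000 bp (-0.46) or without 1 library (-0.71 to -0.56).

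The replicate numbers did not pair the samples (correlations of -0.093, -0.035 and -0.045). With the replicate block 0 subfamilies and 0 loci were called, and L1MdF_I was at -0.62 (edgeR adjusted p = 0.150).

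The log2 ratio of the share of all older lineages (-0.23) was -0.26 without elements counted in 1 library, -0.16 with elements of at least 1000 bp, -0.087 as a share of L1 counts, -0.30 with elements that span no other repeat and -0.19 without the chromosome 2 array, the last 2 chosen after seeing the data.

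Signs turned for L1MdF_V with library totals (0.0036) and L1MdMus_II (0.047), for L1MdFanc_II with elements of at least 1000 bp (0.021), and for L1MdFanc_I without elements counted in 1 library (-0.21), with elements that span no other repeat (-0.12) and among fits without 1 library (-0.40 to 0.34). L1MdMus_I turned with DESeq2 size factors (-0.019), the Wald test (-0.019), the looser filter (-0.063), without elements counted in 1 library (-0.12), with elements that span no other repeat (-0.084) and without 1 library (-0.11 to 0.13). L1MdV_III turned with DESeq2 size factors (-0.013), the Wald test (-0.013), the looser filter (-0.058), without elements counted in 1 library (-0.22) and without 1 library (-0.050 to 0.15). The cause was not tested. The 15 named loci kept their sign in all 12 alternatives each. Most members had too few counts to be tested singly, and among tested loci the biological coefficient of variation was 0.66.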
